A study of Mus musculus with 20 samples.

Results

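The complement genes *C1qa*, *C1qb*, *C1qc*, *C1ra*, *C1s1*, *C3*, *C4b*, *Cfb* and *Serping1* were followed across 20 mouse temporomandibular joint (TMJ) libraries. They were chosen by name as components and regulators of complement, and all 9 had a row among the 54532 genes of the count table. Each library came from a condylar head with a portion of the subchondral bone, so it is bulk RNA of cartilage, bone, marrow and attached soft tissue. The purpose of the comparison was to learn what changes in this joint when *Loxl2*, a collagen and elastin crosslinking lysyl oxidase, is deleted in aggrecan-expressing cells. All animals carried Loxl2 fl/fl and the tamoxifen-inducible Cre recombinase Acan CreERT2, and all were 6 months old when injections began. The 8 control mice received vehicle and the 12 mice labelled knockout received tamoxifen. Injections ran on 5 consecutive days and then monthly, until collection after 4 months. The study's methods give 4 males and 4 females in control, and 6 males and 6 females in the other group. However, the Y-chromosome genes *Ddx3y* and *Eif2s3y* each had a median of 0 reads in control. Fewer than 4 of the 8 control libraries thus held any read of each gene. No library came from mice given tamoxifen without the floxed allele or the Cre, so tamoxifen itself and the deletion cannot be told apart. The Cre is driven by the aggrecan promoter, and in which cells of the sample it acted cannot be read from these counts.

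Complement is a cascade of plasma and tissue proteins that tags surfaces for removal and draws in phagocytes. In the classical pathway, C1q binds immune complexes, dying cells or exposed matrix, and its associated serine proteases C1r and C1s then cleave C4 and C2 to build an enzyme that splits C3; the alternative pathway amplifies this with factor B, and C1 inhibitor, encoded by *Serping1*, shuts off C1r and C1s. The liver makes most circulating complement, whereas C1q comes mainly from macrophages and dendritic cells, and fibroblasts, chondrocytes and macrophages make several components locally. In joints, complement fragments are found in osteoarthritic cartilage and synovial fluid.

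The libraries held 11153820 to 27045668 counted reads, of which 15.2% to 23.1% in control and 9.06% to 18.3% in labelled knockout were mitochondrial. *Loxl2* itself did not fall with the knockout label, at 101 ± 26.9 CPM (reads per gene scaled to library size; mean ± SD, n = 12) against 64.5 ± 30.9 in control (n = 8), with a log2 difference of 0.64 (SE 0.28, edgeR adjusted p = 0.101). A whole-gene count can include transcripts that lack the deleted exons and *Loxl2* RNA of cells without the Cre, so it does not check the labels, and the group is called "labelled knockout" here. Control replicate 8 stood apart in its tissue makeup, with the lowest chondrocyte, macrophage and fibroblast marker levels of the 20 libraries, and results that rest on it are given without it. CPM values below were scaled by trimmed mean of M values (TMM), a difference is the log2 fold change of libraries labelled knockout minus control, and a gene was called when its edgeR quasi-likelihood p-value, adjusted over 15984 tested genes, was under 0.05.

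Of the 9 members, 8 passed the filter on low counts, and 5 of these rose: *C1qa*, *C1qb*, *C1qc*, *C4b* and *Serping1*. None fell. Over all genes tested, 23% were called in either direction and 12% were called higher. All 8 tested members had a positive difference and their median was 1.04, against a median of -0.02 over all genes tested. No tested member had groups that did not overlap, which 0.3% of all genes showed. The DESeq2 Wald test called the same 5 members, with 22.5% of genes called.

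**Figure D1:**
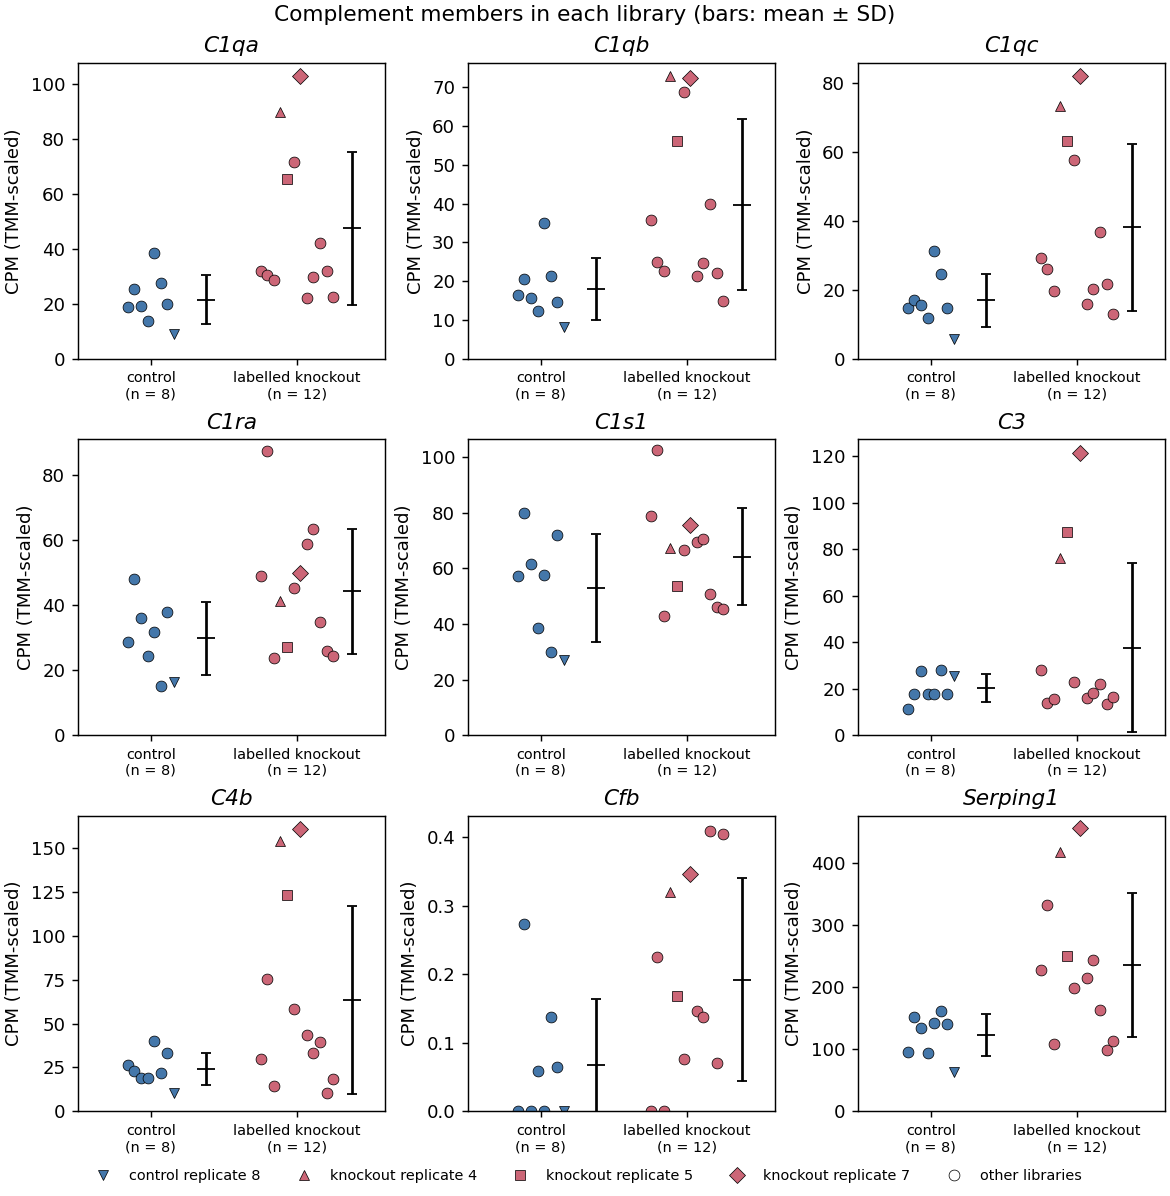
TMM-scaled CPM of each complement member (y axis, separate scale per panel) in the 8 control and 12 labelled-knockout libraries (x axis); each point is a library and the bars give mean ± SD, with the lower bar of *Cfb* in control ending at 0. The C1q chains and *Serping1* shift upward as a group with overlap, whereas knockout replicates 4, 5 and 7 alone lie above all controls in *C3*.

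C1q, the recognition molecule of the classical pathway, is built from A, B and C chains, each encoded by its own gene. The 3 genes lie side by side on the minus strand of chromosome 4 (mm10), within 18675 bases from 136880129 to 136898803: *C1qb* at chr4:136880129-136886187, *C1qc* at chr4:136889804-136893065 and *C1qa* at chr4:136895917-136898803. The promoter windows of *C1qb* (chr4:136886151-136886450) and *C1qc* (chr4:136892865-136893164), which are neighbours that changed together, are shown from RefSeq (GRCm38.p6, minus strand, read 5′ to 3′, 300 bases each, beginning upstream of the annotated start and ending just after it). Capitals in *C1qc* mark a match to GAGGAAGT, a sequence bound by the myeloid factor PU.1, read on the opposite strand.
C1qb: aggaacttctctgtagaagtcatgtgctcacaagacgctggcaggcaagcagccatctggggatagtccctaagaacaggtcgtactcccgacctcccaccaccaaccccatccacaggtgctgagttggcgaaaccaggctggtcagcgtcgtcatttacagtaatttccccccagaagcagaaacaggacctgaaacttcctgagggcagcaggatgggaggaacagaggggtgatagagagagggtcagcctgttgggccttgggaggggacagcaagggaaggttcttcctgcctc
C1qc: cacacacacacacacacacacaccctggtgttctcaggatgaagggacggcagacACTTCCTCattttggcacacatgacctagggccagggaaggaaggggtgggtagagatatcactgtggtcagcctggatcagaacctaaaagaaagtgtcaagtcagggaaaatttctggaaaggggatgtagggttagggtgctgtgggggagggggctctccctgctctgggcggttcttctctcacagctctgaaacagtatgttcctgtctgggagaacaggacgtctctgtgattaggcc
GAGGAAGT occurs on either strand in 3.28% of 27025 such promoter windows, and *C1qb* does not hold it; the match is a description of letters and not evidence of binding.

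*C1qa* ranged from 9.19 CPM through a median of 19.6 to 38.4 in control, and from 22.2 through 32.0 to 103 in the libraries labelled knockout. All 12 of the latter lay above the control median and 5 above the highest control, so the groups overlapped in their middle range. Mean *C1qa* was 47.5 ± 27.8 CPM against 21.6 ± 8.97, a 2.20-fold rise (log2 difference 1.14, SE 0.32, 95% interval 0.47 to 1.80, edgeR adjusted p = 0.0150). *C1qb* ranged from 8.19 through 16.2 to 34.9 CPM in control and from 14.9 through 30.4 to 73.0 in labelled knockout. It rose by the same amount, with a log2 difference of 1.14 (SE 0.32, edgeR adjusted p = 0.0151), and 11 of 12 libraries exceeded the control median. *C1qc* ranged from 5.90 through 15.2 to 31.2 CPM in control and from 12.9 through 27.7 to 82.1 in labelled knockout. Its log2 difference was 1.17 (SE 0.36, edgeR adjusted p = 0.0243), again with 11 of 12 libraries above the control median. In each of the 3 chains control replicate 8 was the lowest and control replicate 5 the highest control; without control replicate 8 the edgeR adjusted p of *C1qc* was 0.05005, just past the threshold, while *C1qa* and *C1qb* stayed called whichever library was left out.

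The chains kept their proportions. The log2 ratio of *C1qa* to *C1qb* was 0.26 ± 0.11 (SD) in control and 0.25 ± 0.22 in labelled knockout, a difference of -0.003 (exact permutation p = 0.971). For *C1qa* over *C1qc* the difference was 0.002 (exact permutation p = 0.984), and for *C1qb* over *C1qc* it was 0.005 (exact permutation p = 0.956), all two-sided over 125970 assignments of libraries. Within groups the chains also varied together from library to library. Pearson's r for *C1qa* and *C1qb* was 0.99 in the 8 controls (Spearman's rho 0.90, exact permutation adjusted p = 0.0016 for r and 0.0209 for rho) and 0.96 in the 12 labelled knockouts (rho 0.94, permutation adjusted p = 0.00019 and 0.00037). With the 2 libraries farthest from the median of *C1qa* left out, r was 0.97 and 0.95.

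C1r and C1s are the proteases that turn C1q binding into C4 and C2 cleavage. Their mouse genes *C1ra* (chr6:124512405-124523443, plus strand) and *C1s1* (chr6:124530345-124542359, minus strand) together span 29955 bases of chromosome 6. Their RefSeq promoter windows, chr6:124512371-124512670 on the plus strand and chr6:124542310-124542609 on the minus strand (the upstream start of 2 annotated for *C1s1*), are shown because these neighbours on opposite strands followed each other closely across libraries. In *C1ra* the capitals mark a match to the C/EBP motif TTGCNNAA on the opposite strand and a match to the STAT motif TTCNNNGAA, and in *C1s1* a match to TTGCNNAA on the opposite strand.
C1ra: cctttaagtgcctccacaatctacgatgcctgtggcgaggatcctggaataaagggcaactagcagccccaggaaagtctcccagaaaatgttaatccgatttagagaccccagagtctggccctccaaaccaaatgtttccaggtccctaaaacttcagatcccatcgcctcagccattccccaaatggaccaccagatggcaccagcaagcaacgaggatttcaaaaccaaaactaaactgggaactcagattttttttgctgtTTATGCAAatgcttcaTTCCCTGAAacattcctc
C1s1: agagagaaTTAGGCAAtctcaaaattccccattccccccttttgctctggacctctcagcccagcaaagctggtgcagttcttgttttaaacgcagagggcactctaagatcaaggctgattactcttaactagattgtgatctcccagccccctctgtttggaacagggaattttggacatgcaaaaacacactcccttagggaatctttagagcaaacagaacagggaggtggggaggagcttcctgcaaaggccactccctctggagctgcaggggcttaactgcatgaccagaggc
C/EBP and STAT factors carry acute-phase signals in many cells. TTGCNNAA was present in 10.8% and TTCNNNGAA in 8.47% of the 27025 windows. Both *C1ra* matches lie after the annotated start, at bases 16 to 23 and 32 to 40 from it. The window of the other annotated *C1s1* start held no match to any motif searched. Here and for *C3* below, the matches describe letters and are not evidence of binding.

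*C1ra* ranged from 15.1 CPM through a median of 30.2 to 48.1 in control and from 23.8 through 43.3 to 87.3 in labelled knockout. The groups overlapped over most of their range, with 5 of 12 labelled knockouts above the highest control. The log2 difference of 0.57 (SE 0.26, 95% interval 0.04 to 1.10) did not pass adjustment (edgeR adjusted p = 0.109). *C1s1* ranged from 26.9 through 57.4 to 80.0 CPM in control and from 42.8 through 67.0 to 103 in labelled knockout. Only knockout replicate 2, the highest in *C1ra* too, exceeded every control, and the log2 difference was 0.28 (SE 0.20, 95% interval -0.14 to 0.69, edgeR adjusted p = 0.324). *C1ra* and *C1s1* had an r of 0.98 in control (rho 0.98, exact permutation adjusted p = 0.0012 for r and 0.0032 for rho) and of 0.94 in labelled knockout (rho 0.92, permutation adjusted p = 0.00042 and 0.0014). Leaving out the 2 libraries farthest from the *C1ra* median left r at 0.94 and 0.90.

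Some reads of the protease genes cannot be placed with certainty. Of the 50-base stretches in *C1ra* exons, 50.8% also occur in *C1rb* or the gene model *Gm18840*, and 21.8% of those of *C1s1* occur in *C1s2*. *C1rb* and *C1s2* were too low to test, with means under 1 CPM in both groups. In addition, 18.4% of the exon bases of *C1s1* overlap an antisense gene, and whether counting used strand is not given in the sources used here. No such stretch of the C1q chains, *C3* or *Serping1* was found in another gene.

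C4 and C3 are the substrates whose larger fragments attach to surfaces. *C4b* (chr17:34728380-34743882, minus strand) ranged from 10.6 CPM through a median of 22.4 to 40.3 in control and from 10.6 through 41.5 to 161 in labelled knockout. The groups shared their lower end, and knockout replicates 4, 5 and 7 were far above the rest at 154, 123 and 161 CPM. *C4b* had the highest difference of the 8 tested members, 63.4 ± 53.7 CPM against 24.1 ± 9.16 (log2 difference 1.40, SE 0.46, 95% interval 0.44 to 2.35, edgeR adjusted p = 0.0328). Its call was lost when any of control replicates 3, 4, 6 and 8 or knockout replicates 4 and 7 was left out, with log2 differences of 1.18 to 1.54 and edgeR adjusted p of up to 0.0681 over the 20 libraries left out in turn. Of its 50-base stretches, 34.6% occur in the paralogue *C4a*, which averaged 0.93 ± 0.61 CPM in control and 1.18 ± 0.43 in labelled knockout (log2 difference 0.34, edgeR adjusted p = 0.477).

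*C3* (chr17:57203970-57228136, minus strand) ranged from 11.04 CPM through a median of 17.8 to 28.2 in control and from 13.4 through 20.0 to 121 in labelled knockout. The medians lay close together, and the difference in means came from the same knockout replicates 4, 5 and 7, at 76.2, 87.6 and 121 CPM, with the other 9 at or below 28.0. The log2 difference of 0.89 (SE 0.43, 95% interval -0.01 to 1.78) did not pass (edgeR adjusted p = 0.138). The ratio of *C4b* to *C3* was 0.52 higher on the log2 scale in labelled knockout, a difference within the spread of libraries (exact permutation p = 0.188, adjusted p = 0.329 over the 7 ratios compared). The RefSeq promoter window of *C3* held a C/EBP match and TATAAA, which occurs in 14.2% of windows; of the 5 members with a promoter in the table (*C1qb*, *C1qc*, *C1ra*, *C1s1*, *C3*) none held the interferon-response core GAAANNGAA (8.57% of windows), the NF-kB core GGNNTTTCC (5.72%) or the MAF motif TGCTGAC (4.58%), each searched on both strands.

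Factor B supplies the protease of the alternative-pathway convertase. *Cfb* (chr17:34856374-34862518, minus strand, in the same region as *C4b*) was barely counted, with 0 to 8 reads per library, 9 reads in all 8 controls and 45 in all 12 labelled knockouts. It was at 0 in 4 control and 2 labelled-knockout libraries, and a count of 0 allows 3 reads, or 0.113 to 0.230 TMM-scaled CPM in those 6 libraries (counting error only). Without the filter, the edgeR log2 difference was 1.43 (SE 0.83, adjusted p = 0.278). Of the exon bases of *Cfb*, 79.5% are shared on the same strand with the gene model *Gm20547*, which had no read in any library. How reads touching both genes were counted is not given in the sources used here, so the level of *Cfb* is uncertain.

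C1 inhibitor, the serpin that inactivates C1r and C1s, was the most abundant member. *Serping1* (chr2:84765387-84775444, minus strand) ranged from 63.5 CPM through a median of 137 to 161 in control and from 98.5 through 221 to 456 in labelled knockout. Above every control lay 9 of 12 labelled knockouts, and knockout replicates 7 and 4 were the highest. Mean *Serping1* rose from 123 ± 34.3 to 235 ± 116 CPM (log2 difference 0.94, SE 0.27, 95% interval 0.37 to 1.51, edgeR adjusted p = 0.0178), and the call held whichever library was left out. On the log2 scale the ratio of *Serping1* to *C1s1* was 0.51 higher in labelled knockout (exact permutation p = 0.0374), that of *C1qb* to *C1s1* 0.72 higher (exact permutation p = 0.0441) and that of *C1ra* to *C1s1* 0.22 higher (exact permutation p = 0.0469). None of these passed adjustment over the 7 ratios compared (exact permutation adjusted p = 0.110 each), although without control replicate 6, the highest control in the ratio of *Serping1* to *C1s1*, that ratio differed by 0.68 and passed (exact permutation adjusted p = 0.0185).

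Per kilobase of exon, *Serping1* led in both groups, at 52.7 ± 14.7 CPM per kilobase in control and 101 ± 49.9 in labelled knockout. In control it was followed by *C1qa* (20.7 ± 8.62), *C1s1* (16.9 ± 6.18), *C1qb* (16.6 ± 7.39), *C1ra* (9.98 ± 3.75), *C1qc* (8.80 ± 4.01), *C4b* (4.23 ± 1.61) and *C3* (3.96 ± 1.17). *C1qa*, *C1s1* and *C1qb* lay within their SD of each other, as did *C1ra* with *C1qc* and *C4b* with *C3*. In labelled knockout *C1qb* (36.6 ± 20.2 CPM per kilobase) and *C1s1* (20.5 ± 5.56) differed by less than the SD of *C1qb*, with *C1qa* at 45.6 ± 26.7 and *C4b* at 11.1 ± 9.42. The levels of *C1ra*, *C1s1* and *C4b* are uncertain on this scale because of their shared sequence.

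Across the cascade beyond the 9 members, 33 of 55 listed complement genes were tested, 7 rose and none fell. Their share of 21.2% stood beside 23% of all genes called in either direction and 12% called higher. The median log2 difference of the 33 was 0.27. The receptors held most of the 7 that rose, with 5 of 10 tested called. Integrin chains of complement receptors 3 and 4, which bind C3 fragments on phagocytes, rose: *Itgam* from 2.56 ± 1.75 to 6.86 ± 2.54 CPM (log2 difference 1.43, edgeR adjusted p = 0.0045), *Itgax* from 0.83 ± 0.30 to 3.09 ± 1.66 (1.91, edgeR adjusted p = 0.00129) and their partner *Itgb2* from 7.10 ± 4.75 to 22.4 ± 8.21 (1.66, edgeR adjusted p = 0.00144). Reads of *Itgam* are uncertain, since 68.7% of its exon bases are shared with the gene model *Gm49368*. *Lrp1*, a broad scavenger receptor, also rose (log2 difference 0.74, edgeR adjusted p = 0.0158). *C5ar1*, the receptor of the chemoattractant C5a, passed narrowly (1.02, edgeR adjusted p = 0.0496) and did so in only 7 of 20 fits with a library left out (edgeR adjusted p of up to 0.0966). The C3a receptor *C3ar1* had a log2 difference of 1.14 but did not pass (edgeR adjusted p = 0.0590).

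Among the other tested genes, properdin (*Cfp*), which stabilises the alternative convertase, rose from 10.5 ± 3.27 to 16.3 ± 4.90 CPM (0.64, edgeR adjusted p = 0.0232). *C2*, the partner of C4 in the classical convertase, had a log2 difference of 0.62 (edgeR adjusted p = 0.231; 46.9% of its exon bases overlap other genes), and *Cfd*, which encodes adipsin, had 0.50 (edgeR adjusted p = 0.663), a value that ran from -0.35 without knockout replicate 5 to 1.42 without control replicate 1. None of the 7 tested membrane regulators was called: the decay-accelerating factor *Cd55* differed by 0.09 (edgeR adjusted p = 0.867), *Cd59a*, the blocker of the membrane attack complex, by -0.27 (edgeR adjusted p = 0.172) and *Cr1l*, which encodes Crry, by -0.003 (SE 0.08, edgeR adjusted p = 0.986). None of the 7 tested genes of the list of recognition and lectin pathway genes was called, and of 7 terminal pathway genes only *C8g* was counted often enough to test.

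**Figure D2:**
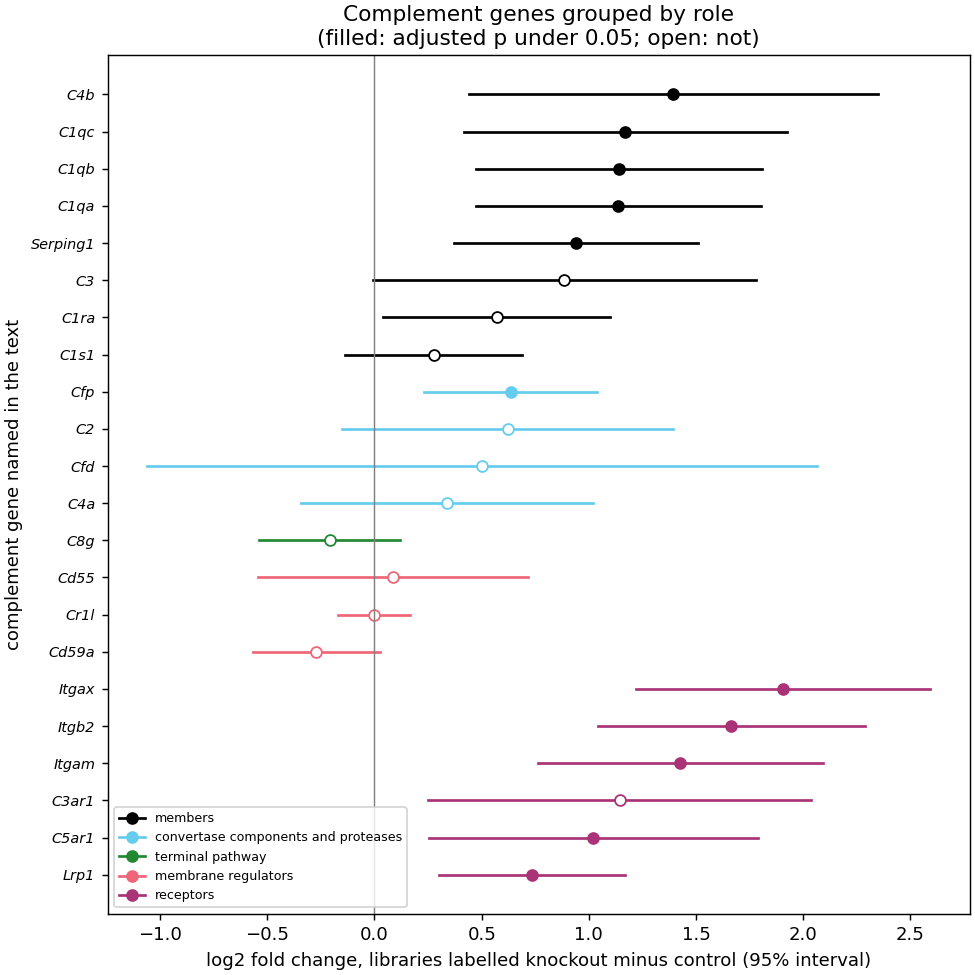
Log2 fold change, libraries labelled knockout minus control (x axis, 95% intervals from the edgeR fit), of the tested complement genes that the text names (y axis), coloured by role; filled points passed an adjusted p of 0.05. The 5 called members, 5 receptors and *Cfp* lie to the right of 0, and none of the 3 membrane regulators shown is filled.

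Complement genes are induced by acute-phase and cytokine signals in many cells, so a list of 16 such genes was set beside the members. Of these 12 were tested, 7 rose (12% of all genes did) and none fell, with a median log2 difference of 0.40. *Socs3*, the feedback inhibitor of interleukin-6 signalling, rose from 14.9 ± 4.21 to 33.9 ± 11.7 CPM (log2 difference 1.19, edgeR adjusted p = 0.00115) and *Stat3* from 97.4 ± 6.30 to 128 ± 14.0 (0.40, edgeR adjusted p = 0.00145), with all 12 labelled knockouts above every control in both, where 0.3% of all genes had groups that did not overlap. Haptoglobin (*Hp*) rose by 1.69 (edgeR adjusted p = 0.0224). *Cebpd* (0.47), *Nfkbia* (0.40), *Nfkb2* (0.37) and *Icam1* (0.51) rose less, with edgeR adjusted p of 0.0345, 0.0230, 0.0155 and 0.0269. The call of *Cebpd* was lost when any of 7 libraries was left out (edgeR adjusted p of up to 0.0617) and that of *Icam1* for 2 libraries (up to 0.0566).

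Markers of several cell types differed between the groups together with the members. In bulk RNA, a change in the number of cells of a type and a change in RNA per cell cannot be told apart. Of the 15 macrophage markers 10 rose and none fell, and their summed level ran from 84.7 to 320 CPM in control and from 233 to 887 in labelled knockout. *Csf1r*, the receptor for macrophage colony-stimulating factor, rose from 34.5 ± 21.8 to 138 ± 81.4 CPM (log2 difference 1.996, edgeR adjusted p = 0.00183), and *Csf1r* and *Cd68* were counted in every library. The mean log2 level of the macrophage list was 1.10 higher in labelled knockout (exact permutation adjusted p = 0.0009 over 11 lists). The osteoclast list was 2.31 higher (adjusted p = 0.0009, exact permutation; 9 of 9 markers rose, summed level 156 to 1089.5 CPM in control and 539 to 5807 in labelled knockout), the fibroblast list 1.07 higher (adjusted p = 0.00044, exact permutation; 5 of 9 rose, summed level 2482 to 20910.3 and 8509 to 57759 CPM) and the mast cell list 2.22 higher (adjusted p = 0.0083, exact permutation; 4 of 5 tested rose, summed level 1.91 to 19.7 and 5.33 to 184 CPM). The osteoblast and osteocyte list was 1.43 higher (adjusted p = 0.0410, exact permutation; 4 of 7 rose, summed level 86.5 to 1331 and 180.1 to 3236 CPM), a call lost when any of 13 libraries was left out. The neutrophil, erythroid, chondrocyte, skeletal muscle, endothelial and adipocyte lists did not pass (adjusted p = 0.0776 to 0.470, exact permutation), although 3 of 8 muscle markers (*Ckm*, *Mylpf*, *Pygm*) fell and none rose, with a summed level of 33788 to 145204 CPM in control and 25816 to 69856 in labelled knockout. Liver RNA was near the floor: none of 7 hepatocyte genes could be tested and *Ttr*, at 7.36 CPM in a single library, was the highest value. With the macrophage, osteoclast or fibroblast list as a covariate no member was called, but these fits called 0 genes of all 15984 (edgeR; 1345, 1266 and 1424 at an unadjusted p under 0.05); with the macrophage list 7 of 8 member differences were negative, all but that of *C1ra*. With the skeletal muscle list, *C1qa* and *C1qb* stayed called and *C1qc*, *C4b* and *Serping1* did not (edgeR adjusted p = 0.0564, 0.0583 and 0.0548), while their log2 differences were 1.14, 1.42 and 0.90, against 1.17, 1.40 and 0.94 without the list. The part of the osteoclast, fibroblast, mast cell, bone and muscle markers in the complement differences was not tested beyond these fits.

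Set against the macrophage list library by library, the C1q chains differed little between groups. The log2 level of *C1qa* minus that of the list was 2.26 ± 0.15 (SD) in control and 2.20 ± 0.47 in labelled knockout, a difference of -0.06 (exact permutation adjusted p = 0.785 over 8 members). For *C1qb* and *C1qc* the differences were -0.05 and -0.06, with the same adjusted p. *C4b* differed by -0.12 (adjusted p = 0.785, exact permutation), *Serping1* by -0.27 (adjusted p = 0.385, exact permutation), *C1ra* by -0.55 (adjusted p = 0.249, exact permutation) and *C3* by -0.64 (adjusted p = 0.291, exact permutation). *C1s1* alone passed, at -0.78 (adjusted p = 0.0300, exact permutation), having differed less between groups than the list; 11 of 12 labelled knockouts were below the control median, but the call was lost without any of control replicates 1, 2, 3, 4, 7 and 8 (exact permutation adjusted p of up to 0.0703). Measured against *Csf1r* alone, all 8 members had negative differences, from -0.93 to -1.66, and 7 passed (*C4b* did not). *Csf1r* rose by 1.996, more than every other of the 15 macrophage markers except *Cd68* (2.20). The closeness of the C1q chains to the macrophage level thus depends on which markers stand for it.

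**Figure D3:**
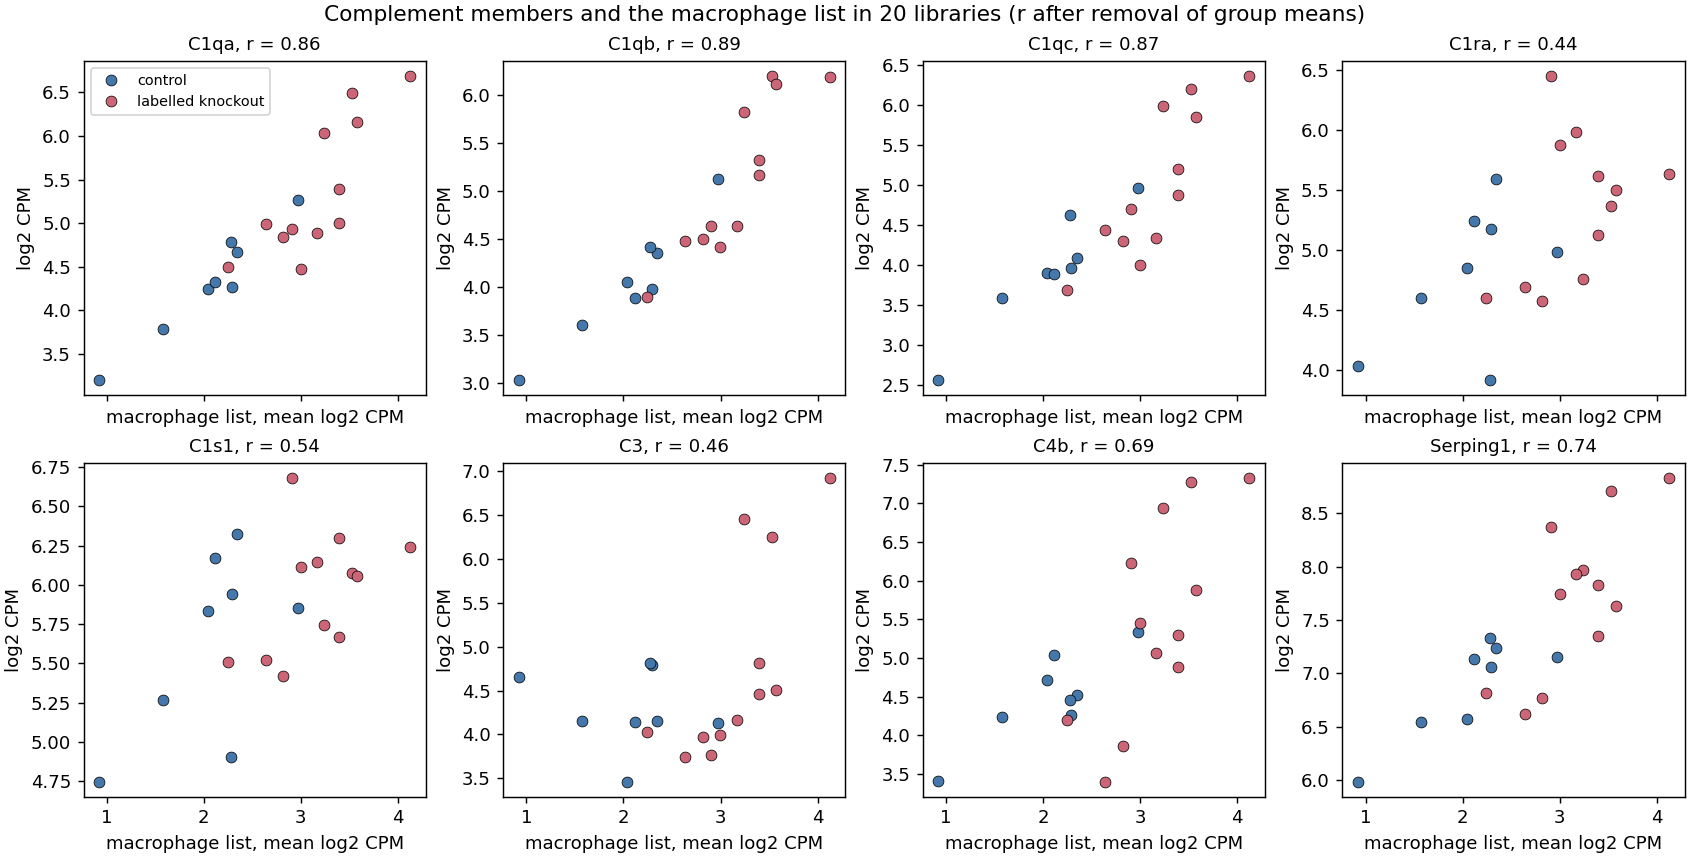
Log2 CPM of each tested member (y axis) against the mean log2 CPM of the 15 macrophage markers (x axis) in 20 libraries, coloured by group; r in each title was computed after removing group means. The C1q chains follow the list most closely, with r of 0.86 to 0.89, and *C1ra*, at 0.44, and *C3*, at 0.46, least. The r of *C3* pools knockout replicates 4, 5 and 7, far above the rest in *C3*, with the other libraries.

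Within groups, the members divided by what they followed. After removal of group means over the 20 libraries, r with the macrophage list was 0.86, 0.89 and 0.87 for *C1qa*, *C1qb* and *C1qc*, 0.74 for *Serping1*, 0.69 for *C4b*, 0.54 for *C1s1*, 0.46 for *C3* and 0.44 for *C1ra*. The protease genes followed other lists more closely: r with the mast cell list was 0.78 for *C1ra* and 0.70 for *C1s1*, with the osteoclast list 0.69 and 0.64, and with the fibroblast list 0.57 and 0.66. For the C1q chains r was 0.07 to 0.13 with the mast cell, 0.12 to 0.22 with the osteoclast and 0.39 to 0.41 with the fibroblast list. *C3* had r of -0.38 with the osteoclast list and -0.64 with the osteoblast and osteocyte list. Every r of *C3* here pools knockout replicates 4, 5 and 7, far above the rest in *C3*, with the other libraries. These replicates also had the lowest osteoblast and osteocyte scores of the labelled knockouts, at 4.58, 3.30 and 5.14. The r of *C3* with the lists was not computed without them. All coefficients in this paragraph are descriptions, since library composition and scaling are shared by both measures. Among all tested protein-coding genes that are no member, *Ctss* was most like each C1q chain, with r of 0.94 for *C1qa*, 0.96 for *C1qb* and 0.95 for *C1qc*, and *C3ar1* followed at 0.92, 0.91 and 0.94. The next most alike were *Cd83* for *C1qb* (0.89) and *Trem2* for *C1qc* (0.88). *Apol7e* was near the top for both *C1ra* (0.92) and *C1s1* (0.90), beside *Hvcn1* (0.90) and *Tspan11* (0.90) for *C1ra* and *Ptgfr* (0.90) and *Clmp* (0.89) for *C1s1*. *Mmp12* and *Gas1* were most like *C4b* (0.91 and 0.88) and *Serping1* (0.88 and 0.90), followed by *Col14a1* for *C4b* (0.82) and *Ccn5* for *Serping1* (0.88). For *C3* they were *Uap1* (0.88), *Clec3b* (0.88) and *Lyz1* (0.87).

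Within each group 28 pairs of members were correlated, and p-values were adjusted over all 56 relations. In control 7 pairs passed for both r and rho: the 3 pairs of C1q chains, *C1ra* with *C1s1*, and *Serping1* with each chain (r of 0.79 to 0.87). In labelled knockout, 8 of the 21 pairs without *C3* passed, among them *C4b* with *Serping1* (r = 0.92, rho = 0.88, permutation adjusted p = 0.0012 and 0.0031; r = 0.86 without the 2 libraries farthest from the median). *C3* in labelled knockout fell into separate sets of 3 and 9 libraries, with nothing between 28.0 and 76.2 CPM. No pooled coefficient of *C3* with another member is therefore given for this group. Within the 9 lower libraries none of the 7 pairs with *C3* passed (highest r = 0.69 with *C1qb*, rho = 0.60, exact permutation adjusted p = 0.267 and 0.452), and in control r of *C3* with the chains was -0.17 to -0.10, so the joint height of *C3*, *C4b* and the C1q chains in knockout replicates 4, 5 and 7 describes those 3 libraries. The labels give no batch or animal sex per library, and these relations were not examined within sexes.

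**Figure D4:**
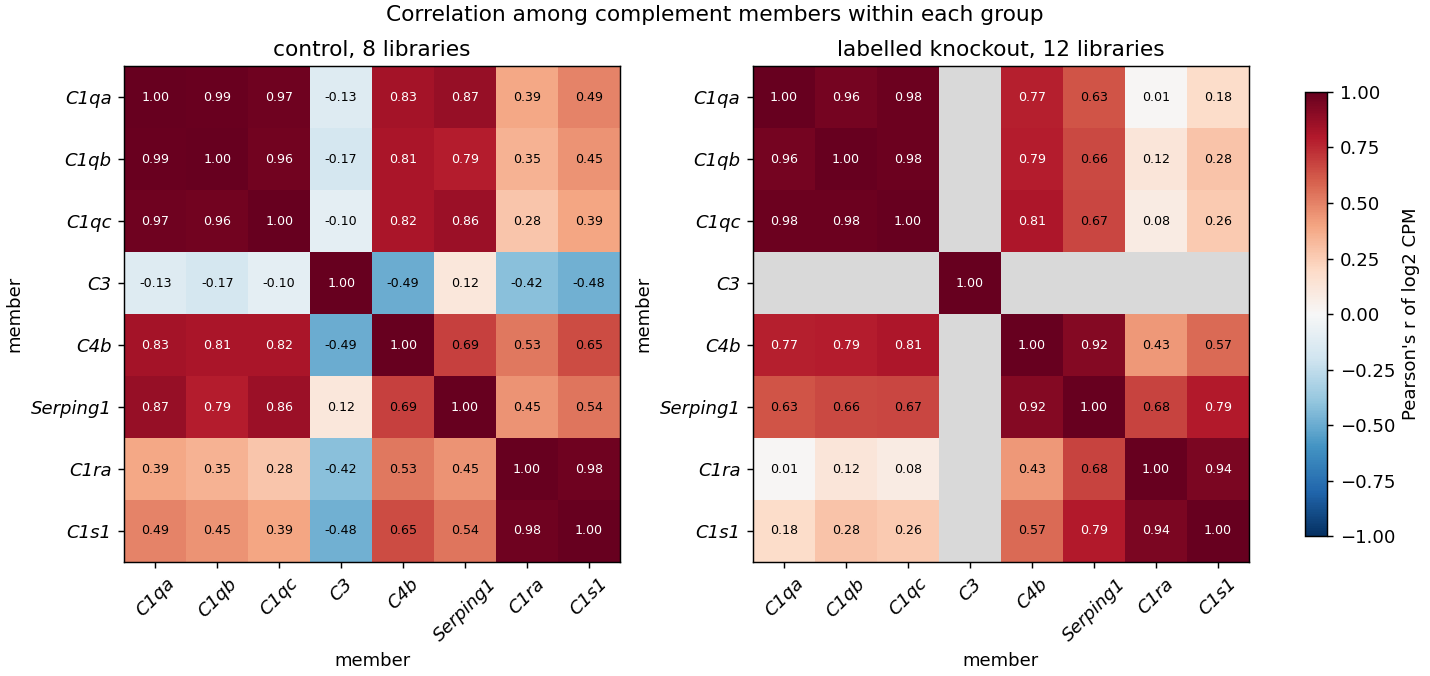
Pearson's r of log2 CPM between members (rows and columns) in the 8 control libraries (left) and the 12 labelled-knockout libraries (right); colour runs from -1 (blue) to 1 (red), and pairs with *C3* on the right are left grey because its libraries fall into separate sets. The block of C1q chains (0.96 to 0.99) and the *C1ra* and *C1s1* pair (0.98 and 0.94) appear in both groups.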

How the data were processed

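Bulk paired-end RNA-seq was analysed from 20 mouse TMJ condylar heads. Per the study's methods, reads were trimmed, mapped to mm10 and counted per gene with featureCounts (v1.5.0-p3); the aligner, the annotation release and the strand and multi-gene settings are not given in the sources used here. The deposited values are raw counts per gene, not normalized by the authors. Groups were taken from the genotype labels. The members and the gene lists were chosen with earlier results of these data known. Symbols and coordinates came from GENCODE M21 (mm10; 37 of 54532 identifiers had no entry) and promoters from RefSeq (GRCm38.p6).

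Counts were fitted in R 4.3.3 with edgeR 4.0.16 (filterByExpr, TMM, glmQLFit and glmQLFTest, group alone, two-sided), with Benjamini-Hochberg adjustment over 15984 genes and a threshold of 0.05. Log2 CPM used a prior count of 2. Ratios, differences from the macrophage list and marker list scores were compared by an exact permutation test over all 125970 assignments. Correlations used all 40320 pairings in control and 100000 resamples in labelled knockout. Since *Cfb* failed the filter, 7 planned ratios (not its ratio to *C3*), 8 members and 28 pairs per group were tested. The study's methods give as many mice as there are libraries and mention no pooling. Named genes were the 9 members, listed genes past the threshold (at most 15 of each list), *Cd55*, *Cd59a*, *Cr1l*, *Cfd*, *C3ar1*, *C5ar1*, *C4a*, *C2* and *Loxl2*, markers of lists that differed and, for each member, the 3 most correlated genes; *C8g* was named after its values were seen. Some genes chosen by this rule are not reported here. Handling *C3* separately in the correlations among members was also chosen after seeing the data. Alternatives included DESeq2 1.42.0, other scalings and filters, a replicate block, marker lists as covariates and leaving out each library. The edgeR and DESeq2 fits and the exact permutation test of group differences were tested on simulated data. The code for correlations, outlying values and motif shares was not.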

Additional observations from a re-analysis of the deposited data

Results flagged for a closer look

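Among 36 values examined in the 8 control libraries, the log2 ratio of *Serping1* to *C1s1* in control replicate 6 stood apart, at 2.42 with the next control at 1.30. Its gap to the nearest control was 0.66 of the whole control range, above Dixon's critical value for a group of this size, which chance exceeds in about 1 of 20 groups, so 1 flag in 36 values is no more than the 1.8 that chance gives. That library had the highest control *Serping1* and the lowest control *C1ra*.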

How the results depend on the processing

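The 5 member calls (*C1qa*, *C1qb*, *C1qc*, *C4b*, *Serping1*) held under each change of scaling, filter, dispersion or test tried, and 8 of 8 tested members kept a positive difference. Calls were lost with marker lists as covariates, which correlate with the group: 0 members with the macrophage, osteoclast or fibroblast list, where edgeR called 0 of all 15984 genes (1345, 1266 and 1424 at an unadjusted p under 0.05), and 2 with the skeletal muscle list (*C1qa*, *C1qb*), where *C1qc*, *C4b* and *Serping1* kept log2 differences of 1.14, 1.42 and 0.90. With the Y chromosome list *C4b* was lost (log2 difference 1.17, adjusted p = 0.0737). Leaving out a library gave 3 members (without control replicate 8, which lost *C1qc* and *C4b*) to 5. The labels do not state that replicate numbers pair the libraries. After removal of group means, same-numbered libraries correlated at -0.36 to 0.17, with 2 of 8 pairs over 0.1. These values show no pairing but cannot exclude one. With the replicate block in the 16 libraries that share a number, 5 members and 7 other complement genes were called, and the acute-phase count fell from 7 to 4.

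The other complement count of 7 became 12 with DESeq2 and 0 with the macrophage, osteoclast or fibroblast covariate; the acute-phase count of 7 became 0 with these and 4 with the muscle list. The cause was not tested. One of 8 members differed from the macrophage list, 0 or 1 when a library was left out, and 7 against *Csf1r* alone; of the ratios, 0 to 1 passed when a library was left out. Correlations passing numbered 18, 21 with library totals alone and 15 without the *C3* pairs of the knockout.

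Apart from leaving out a library, given below, directions turned almost only under covariates. With the macrophage list the log2 differences were -0.18 for *C1qa*, -0.26 for *C1qb*, -0.40 for *C1qc*, -0.21 for *C1s1*, -0.33 for *C3*, -0.28 for *C4b*, -0.074 for *Serping1*, -0.13 for *C2*, -0.20 for *C4a*, -0.93 for *Cfd*, -0.41 for *Cd55*, -0.73 for *C3ar1*, -0.080 for *C5ar1* and -0.096 for *Loxl2*. With the osteoclast list they were -0.43 for *C1ra*, -0.39 for *C1s1*, -0.61 for *C2*, -0.15 for *Cfp* and -0.057 for *Nfkbia*, and with the fibroblast list -0.10 for *C1ra*, -0.34 for *C1s1*, -0.48 for *C4a*, -0.092 for *Lrp1* and -0.48 for *Loxl2*. *Cd55* was -0.064 with the Y chromosome list. *Cr1l*, near 0 throughout, was 0.14 with library totals alone, 0.011 without the filter, 0.016 with the replicate block, 0.010 in the same libraries without it, 0.14 with the osteoclast and 0.054 with the muscle list. Leaving out a library moved *Cr1l* from -0.027 to 0.064, *Cd55* from -0.082 to 0.24, *Cfd* from -0.35 to 1.42, the ratios *C1qa* over *C1qb* from -0.035 to 0.035, *C1qa* over *C1qc* from -0.038 to 0.039 and *C1qb* over *C1qc* from -0.040 to 0.056, and the differences from the macrophage list from -0.12 to 0.0099 for *C1qa*, -0.14 to 0.017 for *C1qc* and -0.25 to 0.023 for *C4b*. Library totals alone shifted the median of all genes to 0.12.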
